A study of Mus musculus with 6 samples.

Results

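The NRF2 and glutathione electrophile response was followed through 53 genes, a list of symbols that covers the transcription factor NRF2 and its regulators, glutathione and thioredoxin enzymes, glutathione transferases, NADPH supply, carbonyl detoxification and iron handling. Each of the 53 symbols matched 1 of the 55487 genes in the deposited count table, and all 53 had enough counts to be tested. The skin came from the back of mice at day 2 and was taken whole, with 3 control libraries and 3 libraries from skin that received DPCP, which is diphenylcyclopropenone, a protein-reactive contact sensitizer used to provoke contact hypersensitivity. No strain, age, sex or allele is given in the labels, and neither the handling of control skin nor the use of separate animals within a group is stated. The p-values thus cover only the spread between the samples at hand, and that spread may be technical. The comparison asks how skin given DPCP differed from control skin at this early time of a study on hair regeneration.

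NRF2, encoded by Nfe2l2, is a transcription factor that the adaptor protein KEAP1 holds at a low level by marking it for degradation. Electrophiles and oxidants react with cysteines of KEAP1, NRF2 then accumulates, and with small MAF proteins it binds antioxidant response elements near genes for glutathione synthesis, conjugation of electrophiles, NADPH supply and iron storage. In skin the pathway is known for guarding keratinocytes against reactive chemicals, among them contact sensitizers. Since NRF2 is controlled mainly as a protein, its own transcript level is not a measure of its activity.

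Library totals ran from 28346992 to 38846787 counts, and mitochondrial genes took 3.41% to 4.07% of them. Levels are given as CPM, counts scaled to a library total of 1000000. A count of 0 allows a level of up to 3 counts, which was 0.0772 to 0.106 CPM, for counting error only. The keratinocyte genes Krt5 (5226 CPM in the control libraries and 6307 CPM in DPCP libraries), Krt14 and Krt10 were abundant in both groups, while of 6 genes of hepatocytes Serpina1c and Fgb had no count and Apoa1 and Ttr had too few to be tested. The other 2 were called lower in DPCP skin, Alb at 4.59 and 2.09 CPM and Cyp2e1 at 188 and 24.8 CPM in control and DPCP libraries, so Cyp2e1 was well expressed in control skin and is no marker of a foreign tissue here. DPCP replicate 1 lay nearer to the control libraries on the first principal component (51.3, against 77.2 and 75.6 for replicates 2 and 3, with control libraries at −69.0 to −67.3). The make-up of the tissue RNA moved with the groups. Of 6 skeletal muscle genes all 6 fell, with a summed level of 11060 to 13662 CPM in the control libraries and 2781 to 5555 CPM in DPCP libraries. Of 8 neutrophil genes 6 rose and Ly6g and Mpo had too few counts to be tested (18.5 to 24.3 CPM and 456 to 1151 CPM summed), and all 6 genes of stressed keratinocytes, S100a8 and S100a9 being in both lists, rose (1378 to 1601 CPM and 17533 to 23713 CPM). Of 5 basal keratinocyte genes 2 rose and 2 fell (13268 to 15205 CPM and 23089 to 27840 CPM), and of 6 genes of differentiated keratinocytes 5 fell (14250 to 19150 CPM and 4918 to 6525 CPM). Of 7 macrophage genes 4 rose (1527 to 2574 CPM and 2530 to 4169 CPM), and of 7 sebocyte genes 4 fell (796 to 1124 CPM and 352 to 627 CPM). Of 6 fibroblast genes 2 rose, of 6 adipocyte genes 1 rose and 1 fell, and of 7 red blood cell genes none of the 5 tested was called. In whole skin, fewer cells of a type and less RNA per cell cannot be told apart, and the part of these shifts in the results was not tested.

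Of the 53 genes, 24 rose and 13 fell in DPCP skin at an adjusted p under 0.05 (edgeR's quasi-likelihood test, Benjamini-Hochberg over all 18259 genes tested), and 16 were not called. Among all genes tested, 22.8% were called higher and 23.3% lower, against 45.3% and 24.5% of the 53. At least 2-fold increases were found for 10 of the 53 genes (18.9%, against 7.89% of all genes tested) and at least 2-fold decreases for 5 (9.43%, against 9.12%). The median log2 fold change was 0.35 over the 53 genes and −0.01 over all genes tested, and log2 fold changes of the 53 ran from −3.21 to 5.46. In CPM, all 3 DPCP libraries lay above all 3 control libraries for 24 of the 53 genes, which held for 24.3% of all genes tested, and below them for 17, which held for 33.2% of all genes tested. Together the 53 genes took 6784 to 7107 CPM in the control libraries and 7722 to 8430 CPM in DPCP libraries. Genes of glutathione supply rose or were not called, while 7 of the 12 transferases fell.

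**Figure D1:**
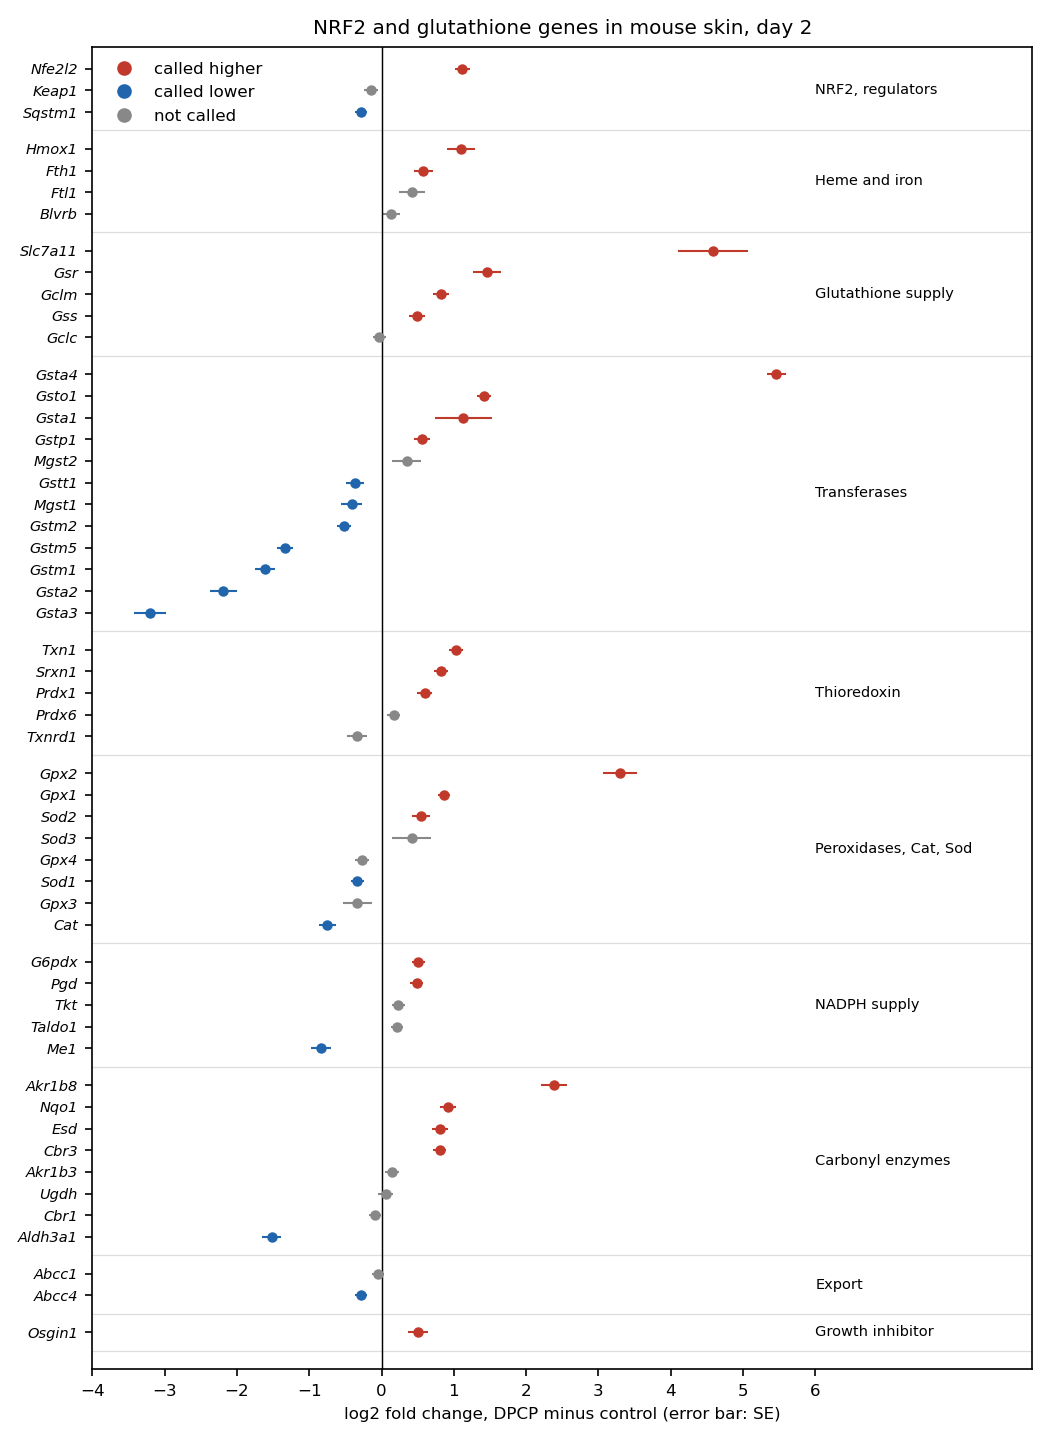
Log2 fold change (DPCP minus control, horizontal axis) of each of the 53 genes, with its SE from 3 libraries a group, grouped by role. Gsta4 (5.46), Slc7a11 (4.59) and Gpx2 (3.30) lie farthest to the right, and Gsta3 (−3.21) and Gsta2 (−2.19) farthest to the left.

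The promoter windows of the genes were searched for the core of the antioxidant response element, TGACNNNGC on either strand, because this is the sequence that NRF2 with a small MAF protein recognises. RefSeq windows (GRCm38.p6, 250 bases before to 50 after a start site) were at hand for 44 of the 53 genes. At least 1 of its windows held the core in 14 of these 44 genes (31.8%), against 14.0% of all genes with a window. Counted by windows, the share was 15 of 56 (26.8%), against 12.4% of all windows. The core was in a window of 6 of the 21 genes that rose, 6 of the 12 that fell and 2 of the 11 that were not called, so it was found on both sides of the comparison. Genes that rose and held it were Nfe2l2, Gclm, Srxn1, Prdx1, G6pdx and Pgd, and genes that fell and held it were Gsta3, Gstm5, Mgst1, Me1, Abcc4 and Sod1. The AP-1 site TGANTCA, which overlaps the core where the letters are TGACTCAGC or the reverse, was in windows of 7 of the 44 genes (15.9%, against 8.97% of all genes with a window). A match is a description of these letters and not a bound site. Sequence outside the windows was not searched, so a gene without a match here may hold the core elsewhere. These 4 windows show the core in capitals, in 2 genes that rose and 2 that fell, 5′ to 3′ on the strand of the gene.
Prdx1, which rose, chr4:116685349-116685648, plus strand: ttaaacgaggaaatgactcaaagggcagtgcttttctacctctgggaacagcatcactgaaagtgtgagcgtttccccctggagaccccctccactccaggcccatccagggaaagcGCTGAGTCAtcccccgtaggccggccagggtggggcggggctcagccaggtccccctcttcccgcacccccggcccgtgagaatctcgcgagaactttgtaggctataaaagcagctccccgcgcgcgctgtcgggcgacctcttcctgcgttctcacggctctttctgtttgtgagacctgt
Gclm, which rose, chr3:122245307-122245606, plus strand: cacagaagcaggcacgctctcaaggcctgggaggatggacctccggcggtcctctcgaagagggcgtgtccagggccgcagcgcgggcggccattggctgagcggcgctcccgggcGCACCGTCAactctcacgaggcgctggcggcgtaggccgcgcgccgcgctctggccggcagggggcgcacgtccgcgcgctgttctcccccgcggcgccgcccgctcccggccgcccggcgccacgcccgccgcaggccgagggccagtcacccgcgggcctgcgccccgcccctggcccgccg
Me1, which fell, chr9:86695865-86696164, minus strand: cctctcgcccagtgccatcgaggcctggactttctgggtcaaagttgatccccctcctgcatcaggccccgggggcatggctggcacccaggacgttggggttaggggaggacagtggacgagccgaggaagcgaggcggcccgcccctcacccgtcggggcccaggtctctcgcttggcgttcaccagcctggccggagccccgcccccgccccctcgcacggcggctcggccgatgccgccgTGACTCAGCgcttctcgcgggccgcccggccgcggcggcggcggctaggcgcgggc
Gsta3, which fell, chr1:21240335-21240634, plus strand: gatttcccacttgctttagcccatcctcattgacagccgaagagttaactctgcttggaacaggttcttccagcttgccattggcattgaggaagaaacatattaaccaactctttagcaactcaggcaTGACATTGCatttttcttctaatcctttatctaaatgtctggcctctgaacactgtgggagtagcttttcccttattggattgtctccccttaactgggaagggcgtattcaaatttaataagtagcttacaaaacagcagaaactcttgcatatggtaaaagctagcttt
In Prdx1 the core began 133 bases before the start site, on the opposite strand, and overlapped an AP-1 site. In Me1 it began 6 bases before the start site and also overlapped an AP-1 site. In Gclm it began 134 bases before the start site, on the opposite strand, and in Gsta3 121 bases before it. Neither of these overlapped an AP-1 site.

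Nfe2l2 itself rose, while the genes for its regulators were lower or not called. Nfe2l2 (ENSMUSG00000015839, GRCm38 chromosome 2, 75675513 to 75704641) was at 90.6, 105 and 97.7 CPM in control replicates 1 to 3 and at 185, 203 and 216 CPM in DPCP replicates 1 to 3. Every DPCP library lay above every control library, and the log2 fold change was 1.12 ± 0.10 (SE) at an edgeR adjusted p of 7.63e-05. Keap1, whose product targets NRF2 for degradation, was at 46.7, 53.1 and 48.6 CPM in the control libraries and 46.1, 36.8 and 44.2 CPM in DPCP libraries. The DPCP values were all lower, but by less than the test could call (log2 fold change −0.15 ± 0.10, edgeR adjusted p = 0.228). Per exon length in the deposited table, Keap1 stood at 0.403 to 0.417 of the level of Nfe2l2 in control libraries and at 0.146 to 0.201 in DPCP libraries. Sqstm1 encodes p62, an autophagy receptor that can bind KEAP1, and fell from 319 ± 15.8 to 248 ± 9.90 CPM (SD, n = 3). Its log2 fold change of −0.29 ± 0.08 was not called without control replicate 1 (edgeR adjusted p = 0.0636), control replicate 2 (0.0669) or DPCP replicate 3 (0.0698). Sqstm1 shares exon bases with Mrnip and Keap1 with a predicted gene, so reads there were dropped.

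Of the 4 heme and iron genes 2 rose and none fell, and 2 were not called. Hmox1, the inducible heme oxygenase that splits heme into biliverdin, iron and carbon monoxide, was at 156, 117 and 119 CPM in the control libraries and 216, 335 and 241 CPM in DPCP libraries. All DPCP values were above all control values, with a log2 fold change of 1.10 ± 0.19 (SE; adjusted p by edgeR = 0.00212). Fth1, the heavy chain of the iron store ferritin, rose from 842 ± 11.5 to 1190.0 ± 181 CPM (SD of 3 libraries; log2 fold change 0.58 ± 0.13). Ftl1, the light chain, was at 180.0 ± 47.6 and 227 ± 25.4 CPM and was not called (log2 fold change 0.42 ± 0.18, edgeR adjusted p = 0.0848), but passed by DESeq2 (0.0416), without a filter on low counts (0.0192) and without control replicate 2 (log2 fold change 0.62, 0.0219). The level of Ftl1 is uncertain, since 60.4% of the 100-base windows of its longest coding transcript also occur in transcripts of other genes, the pseudogenes Ftl1-ps1 and Ftl2-ps among them, and reads with several alignments were not counted. Blvrb, a biliverdin reductase, was at 55.8 ± 3.73 and 58.0 ± 7.54 CPM and was not called.

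Among the 5 genes of glutathione synthesis and recycling 4 rose and 1, Gclc, was not called, with a median log2 fold change of 0.82. Slc7a11 (chromosome 3, 49892526 to 50443614), the cystine importer subunit that brings in the limiting precursor, was at 2.33, 1.18 and 3.08 CPM in the control libraries and 24.4, 74.5 and 52.3 CPM in DPCP libraries. The lowest DPCP library lay well above the highest control library, and the DPCP mean was 23.0 times the control mean (log2 fold change 4.59 ± 0.49, SE, edgeR adjusted p = 0.000171). The spread among DPCP libraries was wide, with replicate 1 the lowest and replicate 2 the highest. The subunits of glutamate-cysteine ligase, the enzyme of the first step of glutathione synthesis, parted. Gclm, the modifier subunit, was at 23.9, 19.8 and 22.1 CPM in the control libraries and 33.9, 37.0 and 39.5 CPM in DPCP libraries, with no overlap and a log2 fold change of 0.82 ± 0.11 (edgeR adjusted p = 0.000544). Gclc, the catalytic subunit, was at 40.1, 36.0 and 38.6 CPM in the control libraries and 38.5, 32.4 and 36.0 CPM in DPCP libraries, with overlapping groups and a log2 fold change of −0.03 ± 0.09 (edgeR adjusted p = 0.809). Per length, the level of Gclm was 0.329 to 0.357 of that of Gclc in control libraries and 0.527 to 0.683 in DPCP libraries, a ratio given as a description. Gclm shares exon bases with other genes and Gclc does not. Gss, the enzyme of the second step, rose from 12.1 ± 0.991 to 16.2 ± 1.47 CPM (SD of 3 libraries; log2 fold change 0.50 ± 0.11).

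Gsr, glutathione reductase, which returns oxidised glutathione to its reduced form with NADPH, was at 26.0, 24.2 and 25.6 CPM in the control libraries and 48.7, 84.4 and 63.8 CPM in DPCP libraries. The groups did not overlap, and the log2 fold change was 1.46 ± 0.20 (SE; adjusted p by edgeR = 0.00057). Slc7a11, Gsr, Hmox1 and the summed neutrophil genes had the same order among the DPCP libraries, lowest in replicate 1 and highest in replicate 2. That order was not particular to them, since Akr1b8, Esd, Sod2, Gstp1 and Gsta1 had it too. Over all genes called, replicate 1 was the DPCP library nearest to the control side in 54.3%. The neutrophil sum was 456, 1151 and 710 CPM in DPCP replicates 1, 2 and 3, most of it from S100a8 and S100a9, which are also in the stressed keratinocyte list. Csf3r (66.7, 134 and 97.6 CPM), Cxcr2, Retnlg and Mmp8 had the same order, and Ly6g and Mpo had too few counts to be tested. For Gsta4 and Gpx2 replicate 3 was the highest, as it was for the summed genes of stressed keratinocytes (17533, 18873 and 23713 CPM in DPCP replicates 1, 2 and 3). Nfe2l2, Txn1, Srxn1 and Gsto1 were also highest in replicate 3. The stressed keratinocyte list was not uniform, with S100a8 (124, 297 and 204 CPM) and S100a9 (215, 590 and 337 CPM) highest in replicate 2. The 4 macrophage genes that rose, Cd68, Mrc1, Cd163 and Msr1, were also lowest in replicate 1 and highest in replicate 2, with Mrc1 at 634, 1198 and 701 CPM, while all 7 macrophage genes summed were highest in replicate 2 and lowest in replicate 3 (3493, 4169 and 2530.3 CPM). Only 3 libraries set these orders, and the part of neutrophil, macrophage or keratinocyte RNA in them was not tested. Without DPCP replicate 2 the log2 fold changes were 4.16 for Slc7a11, 1.20 for Gsr and 0.85 for Hmox1, and all 3 were still called.

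**Figure D2:**
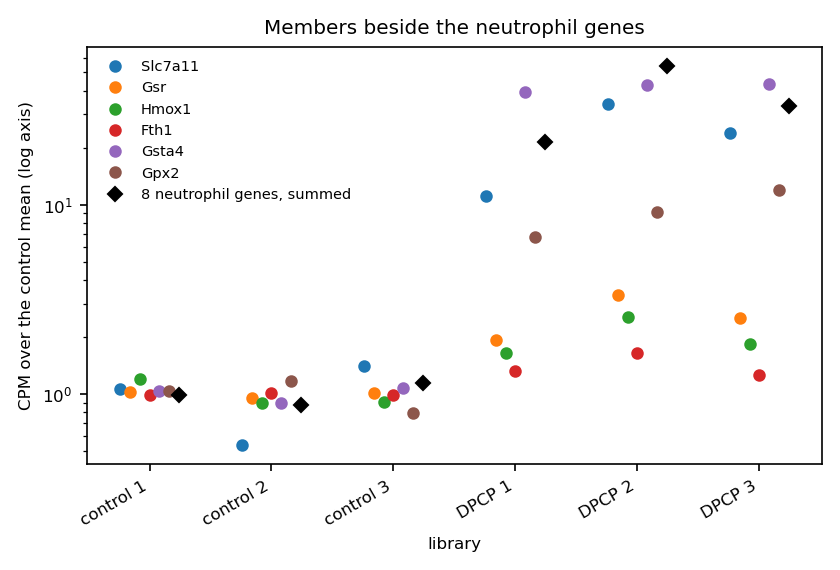
Level of 6 genes of the response and of 8 neutrophil genes summed, in each library, as CPM divided by the mean of the 3 control libraries (vertical axis, log scale). Slc7a11, Gsr and Hmox1 are highest in DPCP replicate 2, as the neutrophil sum is (1151 CPM), while Gsta4 stays within 312 to 348 CPM over the 3 DPCP libraries. Most of the neutrophil sum in DPCP libraries is S100a8 and S100a9, which are also stressed keratinocyte genes.

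The glutathione transferases, which join glutathione to electrophiles, moved in both directions. Of 12 genes 4 rose, 7 fell and Mgst2 was not called. Gsta4 (ENSMUSG00000032348, chromosome 9, 78182774 to 78209349) encodes an alpha-class enzyme known for conjugating the lipid peroxidation product 4-hydroxynonenal, and was at 8.25, 7.10 and 8.55 CPM in the control libraries and 312, 343 and 348 CPM in DPCP libraries. The DPCP mean was 42.0 times the control mean, with a narrow spread in both groups and a log2 fold change of 5.46 ± 0.13 (SE; adjusted p by edgeR = 2.84e-07). Its alpha-class relative Gsta3 (chromosome 1, 21240589 to 21265661) was at 29.1, 25.3 and 35.8 CPM in the control libraries and 4.03, 2.91 and 2.34 CPM in DPCP libraries. That was a fall in every DPCP library, with a log2 fold change of −3.21 ± 0.22 (edgeR adjusted p = 2.36e-05). Gsta2 was at 15.4, 12.3 and 13.1 CPM in the control libraries and 2.65, 3.40 and 2.40 CPM in DPCP libraries, also without overlap (log2 fold change −2.19 ± 0.19, edgeR adjusted p = 5.91e-05).

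Gsta1 and Gsta2 are near copies, and 81.8% and 35.0% of the 100-base windows of their transcripts occur in other genes, each in the other among them, so the levels of both are uncertain. Gsta1 was at 2.02 ± 1.20 and 4.25 ± 0.971 CPM (SD, n = 3), with overlapping groups and a log2 fold change of 1.13 ± 0.39 (edgeR adjusted p = 0.044). Its call was lost when control replicate 1 was left out (log2 fold change of 0.93, edgeR adjusted p = 0.126), and likewise for control replicate 2 (0.88, 0.125), DPCP replicate 2 (0.92, 0.132) and DPCP replicate 3 (1.16, 0.081). Without control replicate 3 the log2 fold change was 1.77 (edgeR adjusted p = 0.00312). Gsta4 and Gsta3 shared no such window with another gene.

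All 3 mu-class genes of the list fell. Gstm1 was at 169, 192 and 188 CPM in the control libraries and 65.1, 60.3 and 45.3 CPM in DPCP libraries. Gstm5 was at 66.1, 60.0 and 67.2 CPM in the control libraries and 24.9, 26.3 and 21.5 CPM in DPCP libraries. For both, every DPCP library lay below every control library, with log2 fold changes of −1.61 ± 0.14 and −1.33 ± 0.11 (SE; adjusted p by edgeR = 6.54e-05 and 5.45e-05). Gstm2 fell from 59.1 ± 2.80 to 39.0 ± 2.82 CPM (SD of 3 libraries; log2 fold change −0.52 ± 0.10).

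The other classes were as follows. Gsto1, an omega-class enzyme that also reduces glutathione-bound thiols, was at 64.3, 61.1 and 64.4 CPM in the control libraries and 148, 161 and 172 CPM in DPCP libraries, a rise in each DPCP library (log2 fold change 1.42 ± 0.09, SE, edgeR adjusted p = 2.07e-05). Gstp1, of the pi class, rose from 34.3 ± 2.01 to 48.0 ± 5.62 CPM (SD of 3 libraries; log2 fold change 0.56 ± 0.12), and 52.8% of its windows occur in other genes, Gstp2 the first among them. Mgst1, a membrane-bound transferase, was at 277 ± 13.1 and 198 ± 46.6 CPM (log2 fold change −0.41 ± 0.15, edgeR adjusted p = 0.0496). Mgst2, another membrane-bound member, was at 8.07 ± 1.18 and 9.82 ± 2.63 CPM and was not called (edgeR adjusted p = 0.188). The call of Mgst1 was lost with RLE factors (0.0511) and without control replicate 1 (0.124), control replicate 2 (0.0779), control replicate 3 (0.124), DPCP replicate 2 (0.114) or DPCP replicate 3 (0.134). Gstt1, of the theta class, was at 23.3 ± 3.09 and 17.1 ± 2.08 CPM (log2 fold change −0.37 ± 0.13, edgeR adjusted p = 0.0478). It was not called with RLE factors (0.0514) or without control replicate 1 (0.168), control replicate 2 (0.134), DPCP replicate 1 (0.0558), DPCP replicate 2 (0.0658) or DPCP replicate 3 (0.146).

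Set on one scale by exon length, the transferase transcripts had another make-up in DPCP skin. In control libraries Mgst1 (29.9% to 31.9%) and Gstm1 (26.0% to 29.9%) were the most abundant per kilobase, and Gsta4 held 1.29% to 1.48% of the summed level of the 12 genes. In DPCP libraries Gsta4 held 42.5% to 49.0%, Mgst1 14.2% to 21.4% and Gstm1 5.50% to 7.61%. The summed level was 436 to 457 CPM per kilobase in control libraries and 560.0 to 584 CPM per kilobase in DPCP libraries. These are shares of transcripts and not of enzyme activity.

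**Figure D3:**
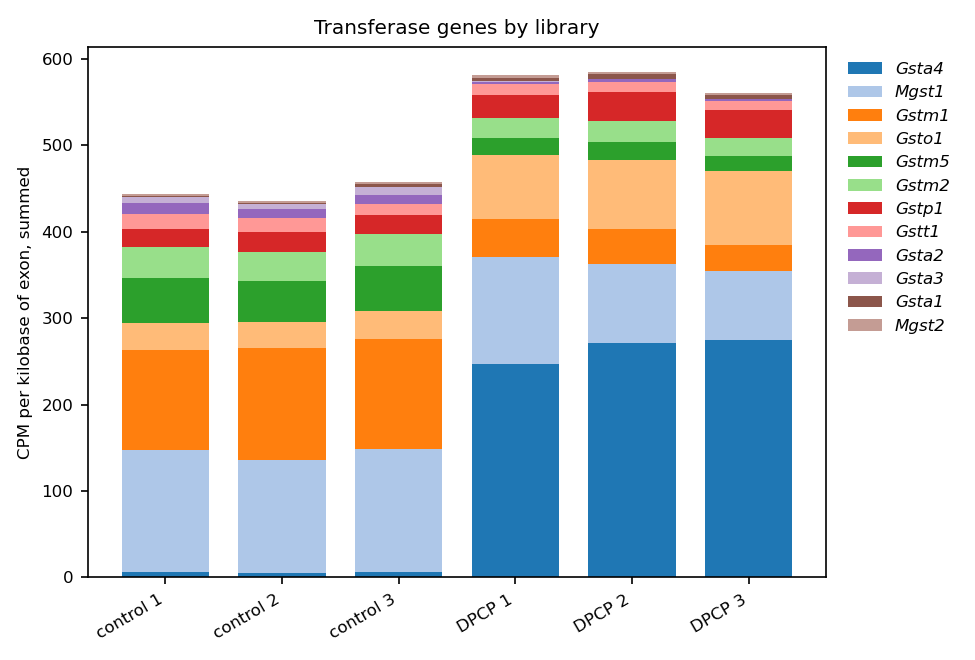
Summed level of the 12 transferase genes in each library, in CPM per kilobase of exon, with each gene a segment of the bar. Gsta4, at the foot of each bar, goes from 1.29% to 1.48% of the sum in control to 42.5% to 49.0% in DPCP libraries, while the segments of Gstm1 and Mgst1 shrink.

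Of the 5 thioredoxin and peroxiredoxin genes 3 rose and 2 were not called. Txn1, the small thiol reductant thioredoxin, was at 118, 114 and 113 CPM in the control libraries and 204, 218 and 244 CPM in DPCP libraries, giving a log2 fold change of 1.03 ± 0.09 (SE; adjusted p by edgeR = 8.45e-05). Srxn1, sulfiredoxin, which restores overoxidised peroxiredoxins, was at 47.8, 41.4 and 46.6 CPM in the control libraries and 73.2, 77.1 and 78.3 CPM in DPCP libraries. Neither gene's groups overlapped, and the log2 fold change of Srxn1 was 0.83 ± 0.09 (edgeR adjusted p = 0.000235). Txnrd1, the reductase that keeps thioredoxin reduced, was at 128, 92.7 and 118 CPM in the control libraries and 76.4, 85.4 and 93.1 CPM in DPCP libraries. The highest DPCP library reached above the lowest control library, and the log2 fold change of −0.33 ± 0.14 was not called (edgeR adjusted p = 0.0768). It passed as lower with library totals alone (0.0309), without a filter on low counts (0.045) and without control replicate 2 (log2 fold change −0.45, 0.0176). Prdx1, a peroxide-reducing enzyme and the gene of the first window printed above, rose from 372 ± 18.6 to 533 ± 33.4 CPM (SD of 3 libraries; log2 fold change 0.59 ± 0.10). Prdx6 was at 156 ± 5.39 and 166 ± 7.90 CPM and was not called (edgeR adjusted p = 0.148).

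Among 8 peroxidase, catalase and dismutase genes 3 rose, 2 fell and 3 were not called. Gpx2 (chromosome 12, 76792333 to 76795554), a glutathione peroxidase of epithelia, was at 3.95, 4.47 and 3.02 CPM in the control libraries and 25.8, 35.1 and 45.6 CPM in DPCP libraries. The groups were far apart, with a DPCP mean 9.31 times the control mean and a log2 fold change of 3.30 ± 0.24 (SE; adjusted p by edgeR = 2.79e-05). Gpx1, the cytosolic peroxidase, was at 327, 319 and 284 CPM in the control libraries and 546, 519 and 541 CPM in DPCP libraries, without overlap (log2 fold change 0.87 ± 0.09, edgeR adjusted p = 0.000122). Gpx3, the secreted peroxidase, had the highest level per length of the 8 in control skin, 449.8 CPM per kilobase, and was at 815 ± 140.2 and 613 ± 152 CPM (SD, n = 3; log2 fold change −0.33 ± 0.20, not called, edgeR adjusted p = 0.2). Gpx4, which reduces lipid peroxides in membranes and guards against ferroptosis, was at 224 ± 19.6 and 177 ± 15.9 CPM and was just short of the threshold (log2 fold change −0.27 ± 0.10, edgeR adjusted p = 0.0537). It passed as lower with upper-quartile factors (0.0329), library totals alone (0.0253), without control replicate 2 (log2 fold change −0.33, 0.0299) and without DPCP replicate 1 (−0.32, 0.0474). In Gpx4, 48.4% of the windows occur in other transcripts, pseudogenes among them.

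Catalase and the cytosolic dismutase fell while the mitochondrial dismutase rose. Cat, the hydrogen peroxide-splitting enzyme of peroxisomes, fell from 277 ± 22.6 to 157 ± 27.6 CPM (SD of 3 libraries; log2 fold change −0.75 ± 0.12). Sod1 was at 106 ± 10.9 and 79.7 ± 1.86 CPM (log2 fold change −0.33 ± 0.09, edgeR adjusted p = 0.0149), and was not called without control replicate 1 (0.0657) or DPCP replicate 3 (0.0505). Sod2, the manganese enzyme of mitochondria, rose from 101 ± 1.53 to 140.2 ± 19.4 CPM (log2 fold change 0.55 ± 0.12). Per exon length in the deposited table, Sod1 stood at 2.38 to 2.88 times the level of Sod2 in control and 1.26 to 1.72 times in DPCP libraries. These lengths are 3970 and 10008 bases, while the longest coding transcripts have 641 and 5861 bases. The ratios thus depend on the length used and would be higher by transcript length, while their fall between groups does not depend on it. Sod3, the extracellular enzyme, was at 88.1 ± 30.1 and 112 ± 32.2 CPM and was not called. The falls of Cat and of the mu-class transferases stand beside lower summed levels of skeletal muscle, sebocyte and differentiated keratinocyte genes in DPCP skin, given above, and their part in these falls was not tested.

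Of the 5 genes of NADPH supply 2 rose, 1 fell and 2 were not called. G6pdx and Pgd, the NADPH-making steps of the pentose phosphate pathway, rose from 144 ± 12.6 to 195 ± 2.99 CPM and from 134 ± 9.13 to 178 ± 6.19 CPM (SD, n = 3), with log2 fold changes of 0.51 ± 0.09 and 0.49 ± 0.09 (SE). Tkt and Taldo1, of the branch of that pathway which makes no NADPH, were at 280.0 ± 2.87 and 313 ± 32.4 CPM and at 189 ± 5.59 and 209 ± 11.2 CPM. Neither was called (edgeR adjusted p = 0.0678 and 0.0584), though both passed by DESeq2 (0.045 and 0.0394) and Taldo1 also with at least 1 CPM in 3 libraries (0.0478). Me1, malic enzyme, which makes NADPH from malate and feeds lipid synthesis, fell from 216 ± 25.9 to 115 ± 20.3 CPM (log2 fold change −0.84 ± 0.14). This fall stands beside that of 4 of 7 sebocyte genes, given above, and their part in it was not tested. For Me1, 14.5% of the windows occur in other transcripts. Exons of G6pdx overlap those of Ikbkg, and exons of Me1 and Tkt those of other genes. Other NADPH supply genes of the wider list also went both ways within a route, with 3 higher (Me2, H6pd and Rpe) and 3 lower (Me3, Tigar and Rpia) of 9 tested. Me2, a mitochondrial malic enzyme, was at 20.0 ± 1.20 and 35.9 ± 4.93 CPM (SD of 3 libraries; log2 fold change 0.92 ± 0.13, edgeR adjusted p = 0.000613), and Rpia, a pentose phosphate isomerase, at 25.4 ± 1.83 and 18.7 ± 2.97 CPM (−0.38 ± 0.12, 0.0368). Apart from Me3, these genes were named after their values were seen.

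Of 8 genes for the reduction, oxidation or hydrolysis of quinones, carbonyls and related compounds or for glucuronic acid supply, 4 rose, 1 fell and 3 were not called. Nqo1, a quinone reductase and a widely used readout of NRF2, was at 11.8, 14.2 and 11.3 CPM in the control libraries and 22.2, 21.4 and 23.2 CPM in DPCP libraries. Its groups did not overlap, with a log2 fold change of 0.92 ± 0.11 (SE; adjusted p by edgeR = 0.000361). Akr1b8 (chromosome 6, 34354119 to 34368463), an aldo-keto reductase, was at 22.6, 21.8 and 15.7 CPM in the control libraries and 81.7, 116 and 99.6 CPM in DPCP libraries. Each DPCP library lay far above the control range, and the log2 fold change was 2.39 ± 0.18 (edgeR adjusted p = 3.23e-05). Its relative Akr1b3, aldose reductase, was at 80.2 ± 4.39 and 83.8 ± 7.73 CPM and was not called, with 50.6% of its windows found in other transcripts.

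Cbr3, a carbonyl reductase, rose from 30.7 ± 1.95 to 51.1 ± 4.71 CPM (SD of 3 libraries; log2 fold change 0.80 ± 0.09), while Cbr1, on the same chromosome, was at 46.0 ± 1.78 and 41.0 ± 3.18 CPM and was not called. Esd, an esterase that completes glutathione-dependent removal of formaldehyde, rose from 72.0 ± 5.95 to 119 ± 13.7 CPM (log2 fold change 0.81 ± 0.12). Ugdh, which makes UDP-glucuronic acid, was at 72.8 ± 4.96 and 71.7 ± 6.51 CPM and was not called. Aldh3a1, an aldehyde dehydrogenase of surface epithelia, was at 94.9, 117 and 104 CPM in the control libraries and 42.7, 30.6 and 31.4 CPM in DPCP libraries. It fell in every DPCP library, to a mean 3.01 times lower than in control (log2 fold change −1.52 ± 0.13, edgeR adjusted p = 7.03e-05).

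Neither exporter gene rose. Abcc1, a pump for glutathione conjugates, was at 216 ± 3.66 and 199 ± 7.71 CPM (SD, n = 3; log2 fold change −0.05 ± 0.08, not called, edgeR adjusted p = 0.63). Abcc4 fell from 42.8 ± 1.86 to 33.4 ± 2.59 CPM (log2 fold change −0.28 ± 0.08, edgeR adjusted p = 0.0233). It was not called without a filter on low counts (0.0582), without control replicate 2 (0.0791), control replicate 3 (0.0753) or DPCP replicate 2 (0.0707). Other exporter genes, from the wider list, went both ways. Abcg2 and Abcc3 rose (log2 fold changes 0.94 ± 0.10 and 0.42 ± 0.11), Abcc5 fell (−1.41 ± 0.11) and Abcc2 was not called. These were named after their values were seen. Osgin1, an oxidative stress-induced growth inhibitor, rose from 9.51 ± 0.372 to 12.8 ± 1.32 CPM (log2 fold change 0.51 ± 0.13).

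**Figure D4:**
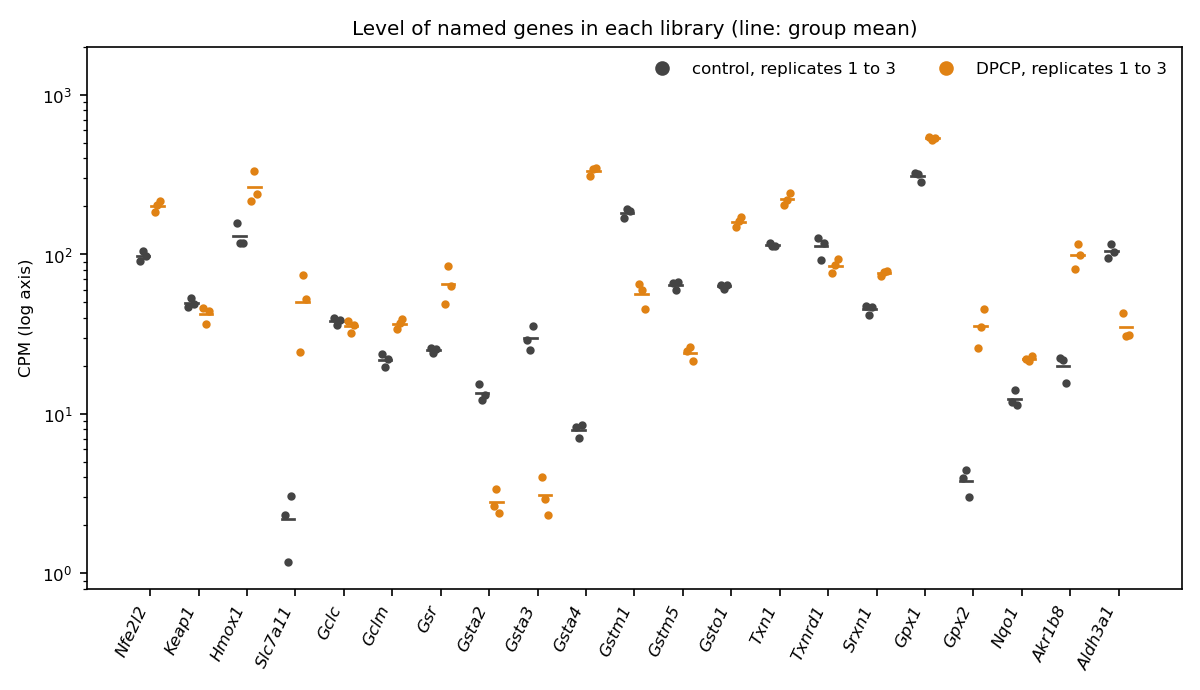
CPM (vertical axis, log scale) of 21 genes of the response in each of the 3 control and 3 DPCP libraries, with a line at each group mean. Gsta4 moves from 7.10 to 8.55 CPM in control up to 312 to 348 CPM in DPCP libraries, and the points of Gclc overlap.

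Among the 37 genes called, DPCP replicate 1 was the DPCP library nearest to the control side in 27, replicate 2 in 7 and replicate 3 in 3. Over all genes called, DPCP replicate 1 was nearest in 54.3%, replicate 2 in 23.8% and replicate 3 in 21.9%. Without DPCP replicate 1, 24 of the 53 genes were called higher and 13 lower.

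**Figure D5:**
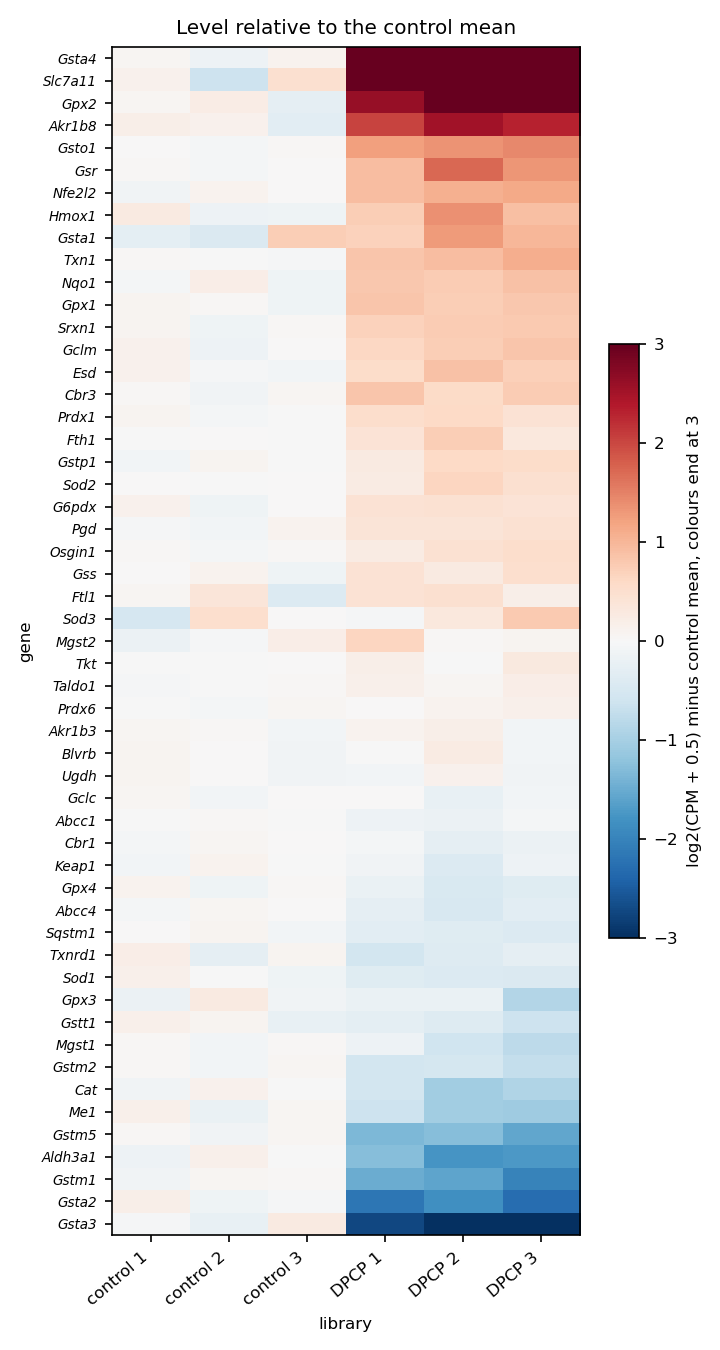
Each of the 53 genes (rows, ordered by the mean over DPCP libraries) in the 6 libraries (columns), as log2(CPM + 0.5) minus the mean of the 3 control libraries, with colours ending at 3. The 3 DPCP columns share their pattern, red from Gsta4 and Slc7a11 downward and blue toward Gsta2 and Gsta3, and replicate 1 is the palest of them for Akr1b8, Gpx2 and Aldh3a1.

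Other genes of the pathway, a list of 99 relatives, cofactors and neighbouring enzymes, were called higher in 26 and lower in 26 of 95 tested cases, with a median log2 fold change of −0.03. That is 52 of 95 called, where 46.1% of all genes tested were called. The increases furthest from 0 were those of Glrx, a glutathione-dependent thiol reductase (81.1 ± 19.9 to 254 ± 17.4 CPM, SD of 3 libraries; log2 fold change 1.72 ± 0.18), Ggt5, which splits glutathione conjugates outside cells (1.59 ± 0.21), and Cth, which makes cysteine from cystathionine (1.17 ± 0.21). The decreases furthest from 0 were those of Cbs, the enzyme before Cth in that route (33.7 ± 2.82 to 8.37 ± 0.491 CPM; −1.94 ± 0.11), Adh7, an alcohol and retinol dehydrogenase (−1.85 ± 0.13), and Me3, a mitochondrial malic enzyme (−1.70 ± 0.20). Of 12 further transferases tested none rose and 3 fell (Gstt3, Gstk1 and Mgst3), and 9 were not called, the mu-class genes Gstm4, Gstm6 and Gstm7 among them. Over all genes tested, 22.8% were called higher and 23.3% lower, so the share that fell was near that of all genes. Of 10 NRF2-related factors and cofactors 2 rose (Nfe2 and Bach1), 4 fell (Nfe2l1, Bach2, Mafk and Cul3) and 4 were not called. Bach1 (log2 fold change 0.23 ± 0.08, edgeR adjusted p = 0.045) and Nfe2l1 (−0.30 ± 0.11, 0.0466) lay near the threshold. Nfe2 was low, at 1.74 ± 0.391 and 3.08 ± 0.676 CPM in control and DPCP libraries. Calls of single genes in these 2 groups were not followed over the alternatives. The genes of these 2 groups were named after their values were seen.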

How the data were processed

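RNA from 6 samples of mouse skin (3 control, 3 DPCP) was sequenced in pairs after poly(A) selection with a strand-preserving kit, per the labels' protocols. The authors deposited raw counts, which featureCounts 1.6.2 had assigned to genes of Ensembl GRCm38 release 102, per the file headers. The command there set no option for strand, pairs or multiple alignments, so each mate was counted on either strand and ambiguous reads were dropped. Other values in the deposited table were exon lengths. Named in the submitters' processing notes are DESeq2 1.34.0, HISAT2 2.2.1, Trimmomatic 0.36, StringTie 2.2.1 and mm10. The results here used the counts as deposited.

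Symbols came from GENCODE M21 (55141 identifiers matched). The main test was the quasi-likelihood test of edgeR 4.0.16 (R 4.3.3), with TMM factors (0.942 to 1.04), filterByExpr and adjustment over all genes. The SE is the unshrunken log2 fold change over the square root of F. CPM used library totals. Levels per length or per kilobase used the exon length of each gene in the deposited table, which can exceed that of any single transcript. The genes, lists and tests were chosen with earlier results of these data known. Named with values in all libraries were 9 fixed genes and the 16 called members of largest absolute log2 fold change with a mean of at least 5 CPM, and from the wider list the 3 largest called changes each way. Others are marked as named after their values were seen. Of the 99 wider symbols, Nnt matched several rows and was left out. Shared windows of 100 bases were searched in GENCODE M21 transcripts. Exon overlap came from the table's coordinates, and 10 of the 53 genes (Keap1, Sqstm1, Ftl1, Gclm, Gss, Gstm5, G6pdx, Tkt, Me1 and Ugdh) shared exon bases. Alternatives were RLE, upper-quartile and no factors, DESeq2 1.42.0, other filters, leaving out each library, a replicate block and genes without exon overlap.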

Additional observations from a re-analysis of the deposited data

How the results depend on the processing

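Over 13 alternatives, of which 6 left out 1 library each, none of the 53 genes that was called reversed its direction, and the genes whose call was lost or gained are named with the results. The counts of the 53 genes were 23 to 24 higher and 9 to 13 lower when 1 library was left out, against 24 and 13, and those of the wider list were 21 to 24 higher and 20 to 27 lower. DESeq2 called 27 higher and 13 lower, library totals alone 24 and 15. Of the 53 genes, 43 shared no exon base with another, and of these 21 were higher and 10 lower. Among such genes of the wider list 22 were higher and 14 lower, against 26 and 26. Among all such genes 2872 were called higher and 2826 lower, against 4163 and 4254. All of these are smaller sets by construction, but in the wider list more of the lower than of the higher calls were lost. The numbers tested without overlap in the wider list and among all genes were not counted, so no share is given for them. With the replicate number as a block, 25 of the 53 genes were higher and 14 lower, and over all genes 4260 and 4241, with Ftl1 called higher (edgeR adjusted p = 0.00873) and Gpx4 lower (0.0371). Same-numbered libraries deviated together only weakly (correlations of 0.0424, 0.0238 and 0.101 across genes), and the other pairs ran from −0.13 to 0.0906. Control replicates 2 and 3 correlated best with the DPCP library of their own number, and control replicate 1 with DPCP replicate 2 (0.0906). Such small correlations cannot decide whether the numbers are pairs, and the main test did not take them as pairs. All of the 53 genes had enough counts to be tested, but whether depth limited any call was not tested. With 3 libraries a group, changes such as those of Ftl1, Txnrd1 and Gpx4 lay near the threshold. Levels of Gsta1, Ftl1, Gstp1, Akr1b3, Gpx4 and Gsta2 are uncertain, because part of their sequence occurs in other transcripts. Where their counted reads lay was not examined.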
